A study of Mus musculus with 48 samples.

Results

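The TTT complex, made of TTI1, TTI2 and TELO2, and its 6 client proteins of the PIKK family (phosphatidylinositol 3-kinase-related kinases) were examined in mouse embryonic stem cells lacking NRDE2, CCDC174 or MTREX. The 9 genes Tti1, Tti2, Telo2, Atm, Atr, Mtor, Prkdc, Smg1 and Trrap were found by matching the gene identifiers of the expression tables to gene symbols, out of 55335 genes in the tables. All 9 were found and all 9 had a mean of at least 0.5 CPM (reads of a gene scaled to a fixed library total), the minimum for testing, in every comparison. Levels are given as scaled CPM, the deposited CPM divided by a factor per library that brings the median gene of all libraries to the same level.

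PIKK proteins are very large and fold slowly. TTT binds them as they are made and, with the chaperone HSP90 and the R2TP co-chaperone complex, brings them to their mature and stable form. ATM, ATR and PRKDC (the catalytic subunit of DNA-PK) act in the response to DNA damage, MTOR controls growth in response to nutrients, SMG1 phosphorylates UPF1 in nonsense-mediated decay, and TRRAP, which has no kinase activity, is a scaffold of histone acetyltransferase complexes. NRDE2 and CCDC174 are nuclear proteins studied for their part in splicing, and MTREX is the RNA helicase that feeds nuclear transcripts to the exosome.

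RNA-seq covered 28 libraries in 14 groups of 2, and ribosome profiling (Ribo-seq) covered 4 libraries in 2 groups of 2. All lines were male hybrid 129-C57BL/6 embryonic stem cells that carry a Cre-ERT2 transgene at the Rosa26 locus, so Cre can act in all cells once 4-hydroxytamoxifen (4OHT) is added. Nrde2-KO cells were conditional knockout cells given 100 nM 4OHT for 4 days, Mtrex-KO cells were given 100 nM 4OHT for 3 days, and the matching WT cells were the same conditional lines without 4OHT, so the treatment with 4OHT and the knockout cannot be told apart. Ccdc174-dTAG cells carried a Ccdc174-FKBP12F36V fusion and received 500 nM dTAG-13, which sends the fusion protein for degradation, for 24 h; their WT cells carried the same fusion without dTAG-13. In Nrde2-Δ200 cells the N-terminal 200 amino acids of NRDE2 are deleted, and Nrde2-D174R cells carry the D174R mutation of NRDE2; both were made from a line with 3A-tagged Nrde2. Edited lines were picked as clones, so differences between clones cannot be told apart from the mutation when these 2 mutants are compared with WT or Nrde2-KO cells. Comparisons of the mutants with Nrde2-KO cells also set cells without 4OHT against cells given 4OHT. Cycloheximide (CHX) stops translation and with it nonsense-mediated decay. Nrde2 WT, Nrde2-KO, Ccdc174 WT and Ccdc174-dTAG cells were also sequenced after 4 h in CHX at 0.1 mg/ml, each beside cells without CHX. The Nrde2 WT and Nrde2-KO libraries that serve as the controls without CHX are called the second experiment below. The labels do not say which libraries were prepared together, so this name stands only for a further set of Nrde2 libraries. The labels do not say that libraries of a group came from separate cultures, so the p-values below measure only the spread between libraries. That spread was estimated over all groups fitted together, not only over the groups compared.

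The RNA-seq libraries held 28683644 to 36272309 reads in genes and the Ribo-seq libraries 3475051 to 5035940, and counting error is therefore larger in Ribo-seq. All 8 embryonic stem cell markers were above 0 in every library, and summed to between 2851 and 6198 in RNA-seq and 2319 and 2870 in Ribo-seq. Their sum moved with some groups, from 5598 and 5836 in Nrde2 WT to 4305 and 4622 in Nrde2-KO, from 6043 and 6198 to 4580 and 5445 with Mtrex-KO and from 5582 and 5769 to 3703 and 3710 with CHX in Nrde2 WT. Markers of other cell types were low but moved with some groups too. Those of primitive endoderm summed to 12.1 and 12.6 in Nrde2 WT and 19.2 and 22.3 in Nrde2-KO RNA-seq libraries. Those of 2-cell-like cells summed to 2.25 to 2.83 in Nrde2 WT, 22.2 to 32.5 in Nrde2-KO and 87.1 to 238 in Mtrex-KO libraries, and in Ribo-seq those of primitive endoderm summed to 2.39 and 4.03 in WT and 7.26 and 10 in KO libraries and the 6 fibroblast markers to 6.76 and 7.18 in WT and 12.6 and 14.7 in KO libraries. The part of these markers in the results was not tested. Nrde2 itself was at 41.3 and 40.3 scaled CPM in WT and at 19.2 and 20.3 in Nrde2-KO cells (log2 fold change −1.04, adjusted p = 3.54e-07), and Mtrex at 118 and 111 in WT and 46.2 and 41.3 in Mtrex-KO cells (−1.39, adjusted p = 8.55e-10). CCDC174 is lost as protein, so its RNA checks nothing.

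The 5′ splice sites (5′SS) of Tti1 are shown first because the study tested splicing of this transcript by RT-PCR between exons 5 and 7, and because the tables count only reads per gene and hold no intron. Each is written as the last 3 bases of the exon in lower case and the first 6 bases of the intron in capitals, on the transcript strand of GRCm38 chromosome 2 (minus strand), for the GENCODE transcript Tti1-201, which has 8 exons.
Tti1 intron 1: gagGTAAGA
Tti1 intron 2: tagGTACGT
Tti1 intron 3: aagGTAATT
Tti1 intron 4: aagGTCAGT
Tti1 intron 5: aagGTACTG
Tti1 intron 6: tggGTAGGT
Tti1 intron 7: gagGTAAGT
A position weight matrix made from 202772 annotated 5′SSs that begin with GT, whose commonest bases are cagGTAAGT, scored these sites in bits, a higher score standing for more of the common bases. The 5′SS of intron 5 had the lowest score in Tti1, 4.85, against a median of 8.25 over all sites, and 9.89% of all sites scored lower or the same. It lies at chr2:157995375-157995383 and begins an intron of 1822 bases. Intron 6, of 298 bases, scored 6.30 (23.1%), and intron 7 scored 12.0 (96.8%). With more bases on either side, the exon 5 junction reads as follows.
Tti1 exon 5 to intron 5, chr2:157995361-157995390, minus strand: agccttcaagGTACTGacacccctgtctgt
Read on from exon 5 in the frame of the protein, intron 5 reaches a taa stop codon at its base 73. The primers of the RT-PCR map to exon 5 (chr2:157995426-157995445) and to exon 7 (chr2:157992992-157993011):
Tti1 exon 5 primer: cctggccttcactcgtacac
Tti1 exon 7 primer: acgggctgtttggtactgag
The spliced product has 334 bases, that with intron 6 has 632 and that with intron 5 has 2156. These lengths are for whole introns only. The paper sequenced the extra bands of its Nrde2-KO sample and reported cryptic 5′SSs, sites other than the annotated one. Products from such sites are not given here.

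Sites in the lowest 10% of all 5′SSs were present in every gene except Telo2. The background share is 10% by definition, so a gene with many introns is likely to have some. Of the introns with a GT 5′SS in the main transcript, Trrap had 5 of 70 there (7.14%), Atm 5 of 61 (8.20%) and Prkdc 8 of 85 (9.41%). Smg1 had 4 of 61 (6.56%), Mtor 2 of 56 (3.57%), Tti1 and Tti2 1 of 7 each (14.3%) and Telo2 none of 20. Atr had the highest share, 9 of 45 (20%). The lowest-scoring 5′SS of Trrap (intron 14, 3.72 bits, chr5:144789590-144789598) and of Atr (intron 39, 0.726 bits, chr9:95937646-95937654) are shown beside Tti1 intron 5.
Trrap intron 14: gagGTACCG
Atr intron 39: tcgGTACTA
These scores describe the sequence alone. Whether they relate to the changes in RNA given below was not tested.

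**Figure D1:**
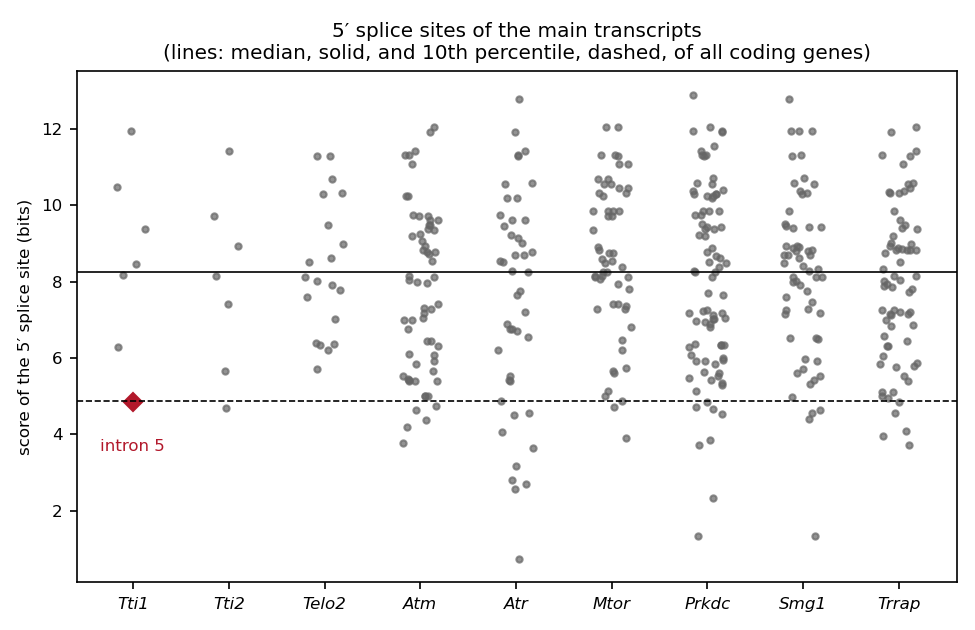
Scores of the 5′SSs of the main transcript of each of the 9 genes in bits (vertical axis), 1 point per intron, with the Tti1 intron 5 site as a diamond, the median of all annotated sites (8.25) as a solid line and their 10th percentile (4.86) as a dashed line. Tti1 intron 5 lies at the 10th percentile, and every gene except Telo2 has at least 1 site at or under that line.

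Levels between genes were compared as scaled CPM per kilobase of exon. By this measure, over the 8 WT libraries without CHX, Tti1 was the highest of the 9 genes at 18.5 ± 1.95 (SD, n = 8), and Telo2, its partner, the lowest at 2.91 ± 0.218. Between them lay Atm (14 ± 1.44), Smg1 (13.1 ± 1.12), Mtor (12.9 ± 1.31), Trrap (8.69 ± 0.681), Prkdc (6.90 ± 1.21), Tti2 (5.98 ± 0.399) and Atr (5.77 ± 0.560). Neighbours in this order overlapped in their ranges, except Mtor against Trrap and Atr against Telo2. The order depends on the exon length, which exceeds the coding length by different amounts. Exon against coding bases were 4129 and 3255 in Tti1 and 8006 and 2520 in Telo2. They were 23984 and 11015 in Smg1 and 13187 and 12384 in Prkdc. Divided by coding length instead, Smg1 would lie above Tti1 and Prkdc below Telo2. Ribosome footprints, per kilobase of coding sequence in the 2 Ribo-seq WT libraries, gave another order. Trrap (14.3) and Mtor (11.3) led, Tti1 (9.61) came next, and Prkdc (3.07) was last. The 2 orders divide by different lengths, so the change of order does not measure translation. Footprints over RNA in WT cells, without lengths, were 0.741 for Telo2, 0.360 for Tti2 and 0.380 for Tti1. With the lengths they were 2.35, 1.35 and 0.482.

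**Figure D2:**
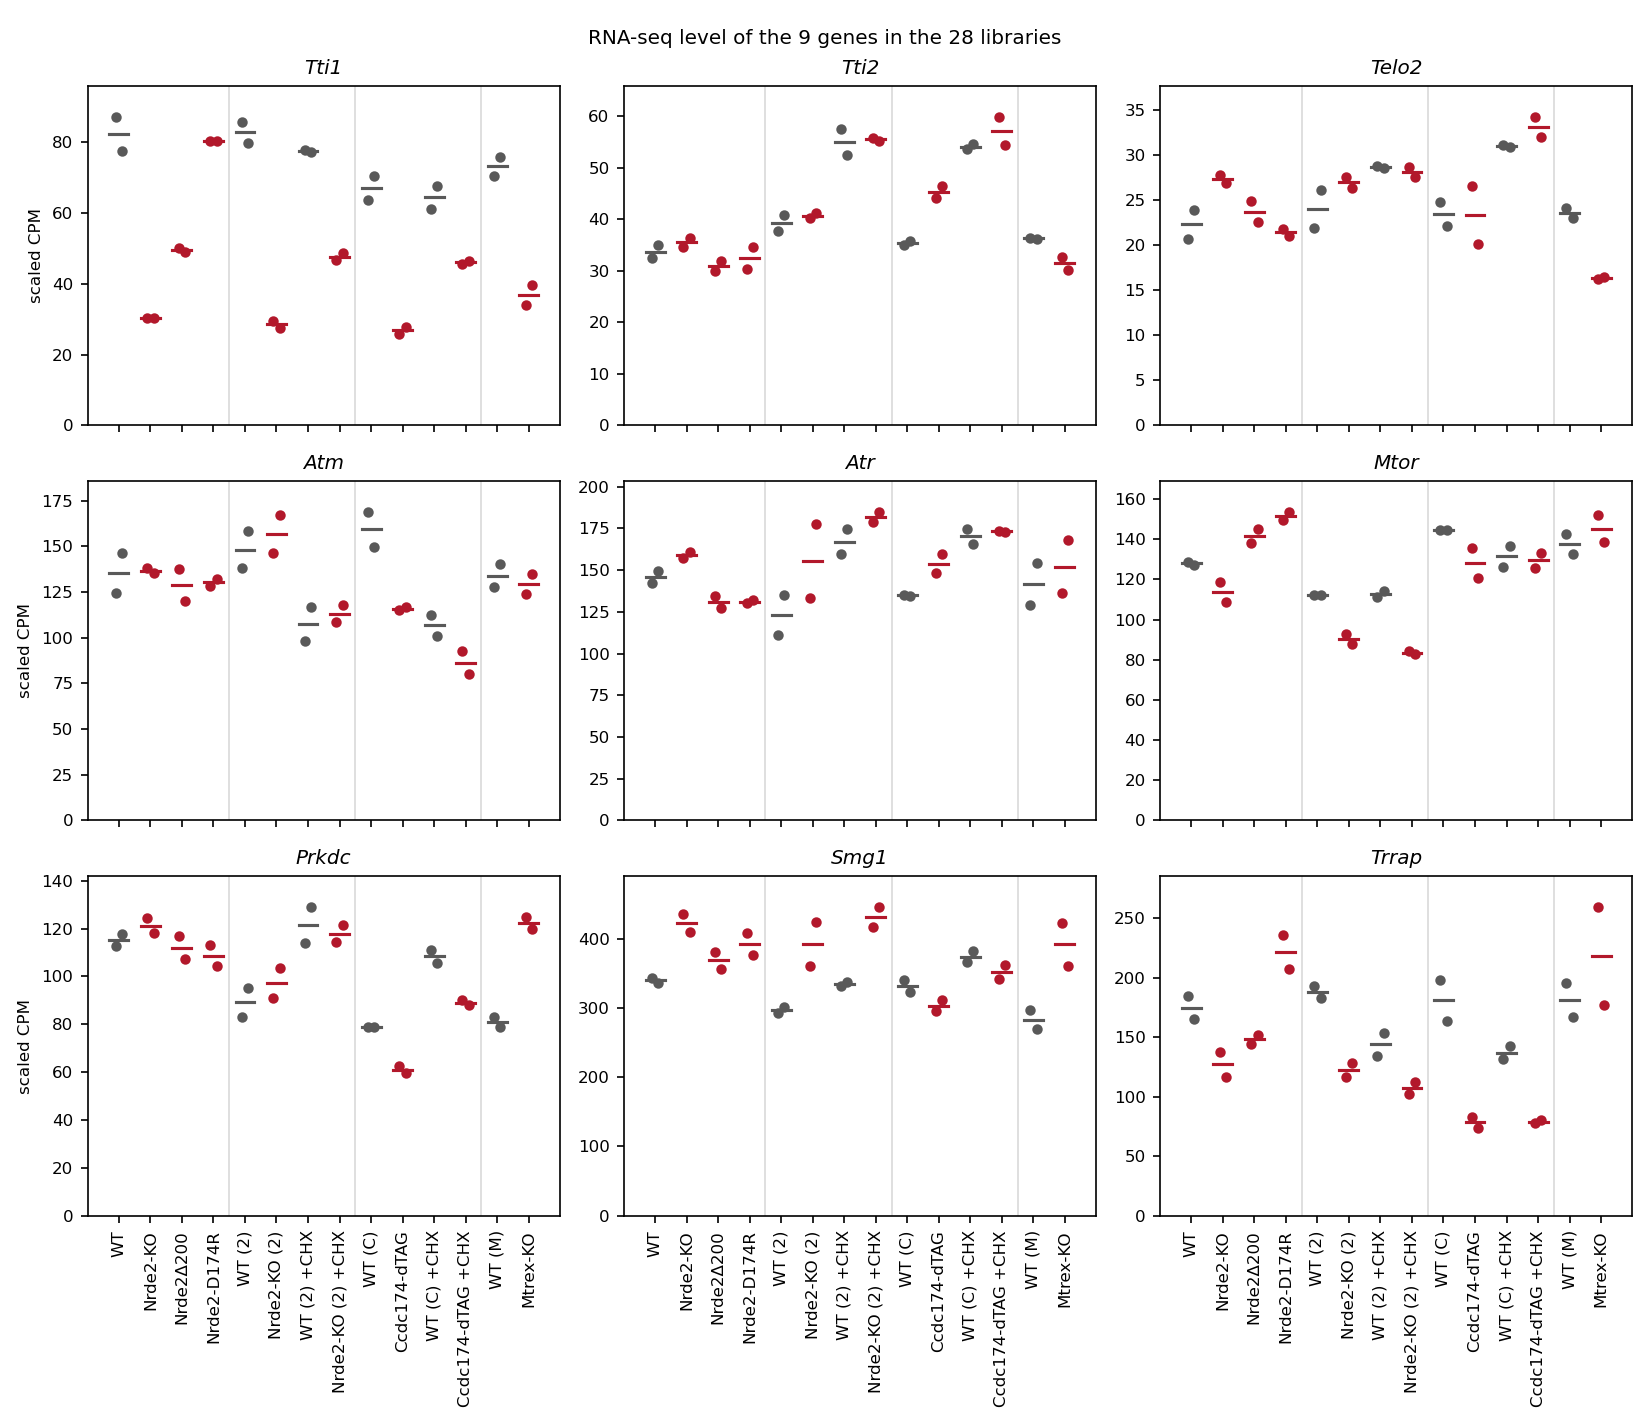
Scaled CPM of the 9 genes (1 panel each) in every library, with WT groups in grey and knockout, mutant or depleted groups in red, points for libraries and bars for the means of 2 libraries. Tti1 is lower in the Nrde2-KO, Nrde2-Δ200, Ccdc174-dTAG and Mtrex-KO libraries than in their WT libraries, while Telo2 is lower in Mtrex-KO libraries and Tti2 shows no such gap in the Nrde2-KO libraries.

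Of the TTT subunits, Tti1 was lower in every knockout and depletion, whereas Tti2 and Telo2 were not lower after loss of NRDE2 or CCDC174. Tti1 (ENSMUSG00000027650, chr2:157981803-158028433, minus strand) encodes the scaffold that holds TTI2 and TELO2 together. It was at 87.2 and 77.4 scaled CPM in Nrde2 WT and at 30.3 and 30.4 in Nrde2-KO libraries. The KO libraries lay far below the WT libraries, at 36.9% of the WT mean. The log2 fold change was −1.43 ± 0.09 (SE), with an adjusted p of 2.61e-08 by limma over 14889 genes. Tti1 alone of the 9 genes passed the test (adjusted p under 0.01) in this comparison, which 18.2% of all genes passed, 10.6% as lower and 7.64% as higher in KO cells. In bulk RNA, fewer cells with a transcript and less of it per cell cannot be told apart. The second experiment had its own WT libraries, at 85.9 and 79.8 for Tti1, and its KO libraries stood at 29.6 and 27.6. They were again apart, with a log2 fold change of −1.52 ± 0.09 and an adjusted p of 1.04e-08.

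The 2 Nrde2 mutants differed in Tti1. Nrde2-Δ200 libraries held 50.2 and 49.1 scaled CPM, between the WT and the KO libraries without overlap, and Nrde2-D174R libraries held 80.4 and 80.5, within the WT range. Tti1 fell in Nrde2-Δ200 cells by 0.73 ± 0.09 on the log2 scale (adjusted p = 7.36e-05, limma), and was the only member to pass, as 7.49% of all genes did. Set directly against the Nrde2-KO libraries, Nrde2-Δ200 libraries were higher by 0.70 ± 0.09 (adjusted p = 0.00012), in a comparison in which 5.72% of all genes passed. In Nrde2-D174R cells none of the 9 genes passed by limma, edgeR or DESeq2 (0.396% of all genes did by limma, 59 genes, with 2623 genes at an unadjusted p under 0.05), and the log2 fold change of Tti1 was −0.03 ± 0.09 (adjusted p = 0.896). Against the KO libraries, Nrde2-D174R libraries were higher in Tti1 by 1.4 (adjusted p = 4.58e-08; 14.2% of all genes passed). The Nrde2-KO, Nrde2-Δ200 and Nrde2-D174R comparisons use the same 2 WT libraries.

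Depletion of CCDC174 was accompanied by a fall of Tti1 of like size. The WT libraries were at 63.6 and 70.4 scaled CPM and the Ccdc174-dTAG libraries at 25.9 and 27.9, again without overlap and at 40.2% of the WT mean. The log2 fold change was −1.31 ± 0.09 (adjusted p = 6.65e-08), where 5.59% of all genes passed the test (4.45% lower, 1.14% higher) and 1.38% also had a log2 fold change beyond 1 in size. The Ccdc174-dTAG effect minus the Nrde2-KO effect was 0.12 ± 0.13 for Tti1 (adjusted p = 0.636), and its interval ran from −0.14 to 0.38. No member passed this test of the difference by limma, edgeR or DESeq2, which by limma 1.65% of all genes passed and 3312 genes met at an unadjusted p under 0.05.

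Mtrex-KO cells also had less Tti1, at 34.0 and 39.6 scaled CPM against 70.6 and 75.8 in their WT libraries. These groups did not overlap either, and the log2 fold change was −0.99 ± 0.09 (adjusted p = 6.76e-08). In this comparison 55.9% of all genes passed (27.4% lower, 28.5% higher), so a call says less than in the others, and on CPM as deposited, where the median of all genes moved by −0.38, the change of Tti1 was −1.39. The smaller effect in Mtrex-KO than in Nrde2-KO cells, a difference of 0.44 ± 0.13, did not pass the test (adjusted p = 0.0128, limma, where 31.5% of all genes passed). It also depends on the scaling. The value of −1.39 on CPM as deposited lies within the range of the Nrde2-KO change of Tti1 over 10 alternative settings (−1.45 to −1.37).

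Tti2 (ENSMUSG00000031577, chr8:31150315-31164702, plus strand), whose product binds TTI1, did not pass in any knockout or depletion without CHX. Nrde2 WT libraries held 32.5 and 34.9 scaled CPM and Nrde2-KO libraries 34.6 and 36.4, and the levels were 34.9 and 35.8 before and 44.1 and 46.4 after CCDC174 depletion. The Nrde2 groups overlapped (log2 fold change 0.07, adjusted p = 0.565), and the Ccdc174-dTAG libraries were both higher than their WT libraries without passing the test (0.35, adjusted p = 0.0157). Tti2 overlaps Mak16 on the opposite strand, and reads were counted by strand. Telo2 (ENSMUSG00000024170, chr17:25099570-25115967, minus strand), whose product contacts the PIKKs, was at 20.7 and 23.9 in Nrde2 WT and 27.7 and 26.9 in Nrde2-KO libraries. The KO libraries were the higher, without passing the test (0.29 ± 0.13, adjusted p = 0.0881). In Mtrex-KO cells Telo2 fell from 24 and 23 to 16.2 and 16.4 scaled CPM (−0.52 ± 0.13, adjusted p = 0.00146), though without WT replicate 1 the adjusted p was 0.0135 and with only the compared groups in the fit 0.0178. On CPM as deposited the change of Telo2 was −0.91. For Telo2 the Mtrex-KO effect was lower than the Nrde2-KO effect by 0.82 ± 0.18 on the log2 scale (adjusted p = 0.00129). On CPM as deposited that difference was −1.27, and without Nrde2 WT replicate 1 it was −0.71 and lay at the threshold (adjusted p = 0.01).

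**Figure D3:**
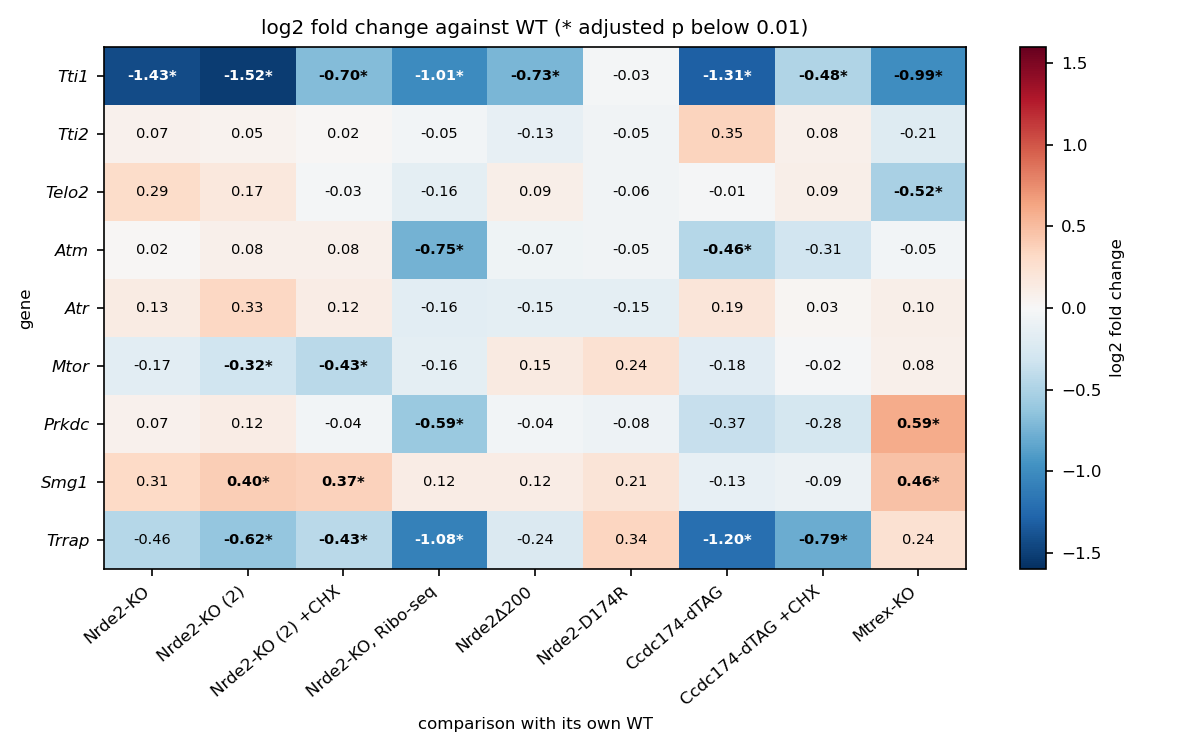
Log2 fold changes of the 9 genes (rows) against WT in each knockout, mutant or depletion and in both assays (columns). Each coloured cell holds its value, with an asterisk where the adjusted p was under 0.01 (limma). Tti1 lies at −0.48 or lower in all but Nrde2-D174R cells (−0.03), and Trrap is lowest in Ccdc174-dTAG cells (−1.20) and in Ribo-seq (−1.08).

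Trrap (ENSMUSG00000045482, chr5:144767732-144859778, plus strand) was the client with the largest decrease in Nrde2-KO cells in both assays and in Ccdc174-dTAG cells, all without CHX. It was at 184 and 166 scaled CPM in Nrde2 WT and 138 and 116 in Nrde2-KO libraries, 72.7% of the WT mean and without overlap, but did not pass the test (−0.46 ± 0.15, adjusted p = 0.0239). In the second experiment it was at 193 and 183 in WT and 116 and 128 in KO libraries and passed (−0.62 ± 0.15, adjusted p = 0.00398), although with any 1 of the 4 libraries left out the adjusted p was between 0.0145 and 0.0385. In Ccdc174 cells Trrap fell from 198 and 164 to 82.7 and 73.9, which was 43.2% of the WT mean (−1.20 ± 0.15, adjusted p = 2.39e-05). The difference between the Ccdc174-dTAG and Nrde2-KO effects on Trrap, −0.74, did not pass the test (adjusted p = 0.0412). Nrde2-D174R libraries held 236 and 207, above both WT libraries but without passing (0.34, adjusted p = 0.239), and exceeded the KO libraries by 0.80 (adjusted p = 0.000747). That last call was lost without KO replicate 2 (adjusted p = 0.0184) and without D174R replicate 1 (adjusted p = 0.0169). In Mtrex-KO cells the libraries spread from 177 to 259 and overlapped with WT (196 and 167).

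Of the kinases of the DNA damage response, Atm (ENSMUSG00000034218, chr9:53439149-53536740, minus strand) stood at 169 and 150 scaled CPM before CCDC174 depletion and at 115 and 117 after it. The groups were apart and Atm passed the test (−0.46 ± 0.10, adjusted p = 0.00743), which it did not with any 1 of the 4 libraries left out (adjusted p 0.0146 to 0.116). In Nrde2 cells Atm overlapped between WT (124 and 146) and KO (138 and 136), with a log2 fold change of 0.02 (adjusted p = 0.907). Atr (ENSMUSG00000032409, chr9:95857597-95951781, plus strand), which responds to stalled replication forks, ran from 142 to 150 in Nrde2 WT and from 158 to 161 in Nrde2-KO libraries, and passed in none of Nrde2-KO, Nrde2-Δ200, Ccdc174-dTAG and Mtrex-KO cells. Prkdc (ENSMUSG00000022672, chr16:15637866-15842235, plus strand), which acts in the joining of DNA ends, was at 78.8 in both Ccdc174 WT libraries and at 62.6 and 59.6 in Ccdc174-dTAG libraries. It was lower in both, just outside the threshold (−0.37, adjusted p = 0.0108). In Mtrex-KO cells Prkdc rose from 83.1 and 78.7 to 125 and 120 (0.59 ± 0.09, adjusted p = 1.27e-05). On CPM as deposited, whose median gene moved by −0.38, that change was 0.20 (adjusted p = 0.108). The Mtrex-KO effect on Prkdc exceeded the Nrde2-KO effect by 0.52 ± 0.12 (adjusted p = 0.00252), which did not pass on CPM as deposited.

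Smg1 (ENSMUSG00000030655, chr7:118131308-118243670, minus strand), the kinase of nonsense-mediated decay, had the most RNA-seq reads of the 9 genes and was higher in each Nrde2-KO library than in the WT libraries. It was at 344 and 336 scaled CPM in Nrde2 WT and 435 and 410 in Nrde2-KO (0.31 ± 0.09, adjusted p = 0.0187), and at 293 and 301 against 360 and 425 in the second experiment, where it passed (0.40 ± 0.09, adjusted p = 0.00411). The second call was lost in 3 of the 4 fits with 1 library left out. In Mtrex-KO cells Smg1 rose from 297 and 270 to 423 and 361 (0.46 ± 0.09, adjusted p = 0.000338), but by 0.07 on CPM as deposited (adjusted p = 0.576). Mtor (ENSMUSG00000028991, chr4:148448611-148557683, plus strand), the growth kinase, was at 129 and 127 in Nrde2 WT and 119 and 109 in Nrde2-KO libraries, lower without passing (−0.17, adjusted p = 0.12). In the second experiment it fell from 112 in both WT libraries to 92.6 and 87.7 (−0.32 ± 0.08, adjusted p = 0.00637), and with any 1 library left out the adjusted p was between 0.0155 and 0.0603. With Tti1, Smg1 and Trrap this made 4 of the 9 genes that passed in the second experiment, against 18.7% of all genes (11.3% lower, 7.44% higher). In Ccdc174-dTAG cells 3 of 9 passed (Tti1, Trrap and Atm), against 5.59% of all genes. In Mtrex-KO cells 4 of 9 passed (Tti1, Telo2, Prkdc and Smg1), no larger a share than the 55.9% of all genes. Over the 9 members, log2 fold changes had a median of 0.07 for Nrde2-KO (0.00467 over all genes), −0.18 for Ccdc174-dTAG (0.0250) and 0.08 for Mtrex-KO cells (−0.0017).

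CHX was used to ask which transcripts are lowered through decay that needs translation. With CHX the gap in Tti1 between Nrde2 WT (77.9 and 77.4 scaled CPM) and Nrde2-KO libraries (46.7 and 48.7) was smaller than without it (85.9 and 79.8 against 29.6 and 27.6). Without CHX the KO libraries held 34.6% of the WT mean, and with CHX 61.5%. Tti1 still passed in the presence of CHX (−0.70 ± 0.06, adjusted p = 1.11e-05; 4 of the 9 genes and 27.8% of all genes passed). The KO effect with CHX minus that without CHX was 0.83 ± 0.11 (adjusted p = 0.00156, limma), and only 0.515% of all genes passed this test, Tti1 alone among the 9. In Ccdc174 cells the CHX-treated libraries held 61.3 and 67.7 in WT and 45.7 and 46.5 after depletion, 71.4% of the WT mean against 40.2% without CHX. The effect with CHX was −0.48 ± 0.06 (adjusted p = 0.000416; 2 of 9 genes and 9.05% of all genes passed), and the difference from the effect without CHX was 0.82 ± 0.11 (adjusted p = 0.00186; 0.251% of all genes passed, again Tti1 alone among the 9). With 1 library left out, the adjusted p of these differences ranged from 0.00326 to 0.012 and from 0.00375 to 0.0194, and was above 0.01 in 5 and in 4 of the 8 fits.

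**Figure D4:**
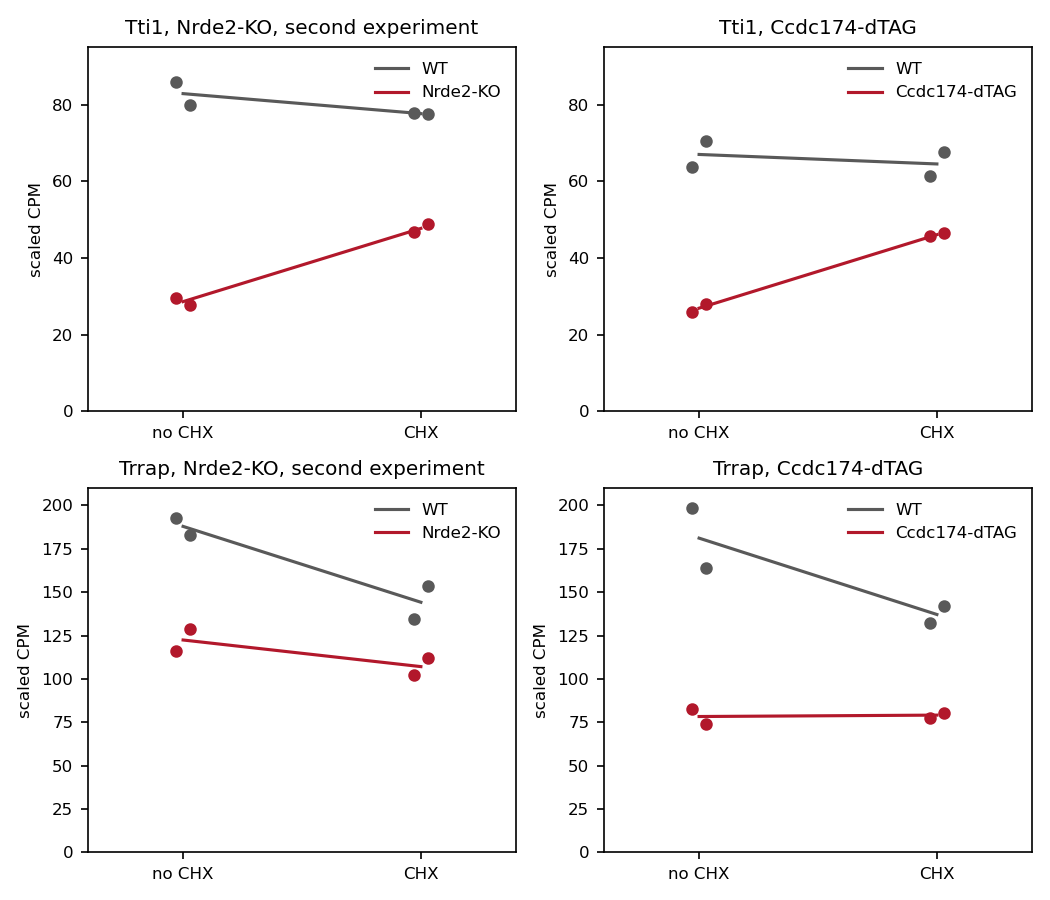
Scaled CPM of Tti1 and Trrap without and with CHX in Nrde2 and Ccdc174 cells, with points for libraries and lines joining the means of 2 libraries. For Tti1 the gap between WT and knockout or depleted libraries narrows with CHX while WT stays near its level, and for Trrap both WT and depleted or knockout libraries are at or below 154 with CHX.

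For Trrap the difference did not pass the test in either line. With CHX it was at 135 and 154 scaled CPM in Nrde2 WT and 102 and 112 in Nrde2-KO libraries (−0.43 ± 0.07, adjusted p = 0.0008), and at 132 and 142 against 77.6 and 80.6 in Ccdc174 cells (−0.79 ± 0.07, adjusted p = 6.54e-05). The groups did not overlap in either line. The effect with CHX minus that without was 0.19 ± 0.14 (adjusted p = 0.555, interval −0.08 to 0.46) in Nrde2 and 0.41 ± 0.14 (adjusted p = 0.267, interval 0.14 to 0.68) in Ccdc174 cells, the same sign as for Tti1, and Trrap was not tested against Tti1. Mtor and Smg1 also passed with CHX in Nrde2-KO cells, Mtor at 84.2 and 82.8 against 111 and 114 (−0.43 ± 0.05, adjusted p = 0.000129) and Smg1 at 418 and 446 against 332 and 338 (0.37 ± 0.05, adjusted p = 0.000294). The call of Trrap in CHX-treated Nrde2-KO cells was lost without KO replicate 1.

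CHX by itself moved other members in WT cells. Tti2 rose from 37.7 and 40.9 to 57.5 and 52.4 scaled CPM in Nrde2 WT (0.48, adjusted p = 5.37e-05) and from 34.9 and 35.8 to 53.7 and 54.6 in Ccdc174 WT (0.61, adjusted p = 5.03e-06). Prkdc rose in both lines (0.44 and 0.46, adjusted p = 0.000334 and 0.00023), and Atm (−0.47 and −0.58, adjusted p = 0.00151 and 0.000248) and Trrap (−0.38 and −0.40, adjusted p = 0.00316 and 0.00242) fell in both. Tti1 did not pass in either line (−0.09, adjusted p = 0.316, and −0.05, adjusted p = 0.559). With Atr in Nrde2 WT (0.44, adjusted p = 0.00294) and Telo2 in Ccdc174 WT (0.40, adjusted p = 0.00732), 5 of the 9 genes passed in each line, where 47.5% and 49.5% of all genes passed. On CPM as deposited, whose median gene moved by 0.20 and 0.21, Trrap stood at −0.17 (adjusted p = 0.123) and −0.16 (adjusted p = 0.149), and Atm in Nrde2 WT at −0.26 (adjusted p = 0.0318). With 1 library left out, Atm and Atr in Nrde2 WT each lost the call in 2 of 4 fits, Trrap in 3 of 4 in Nrde2 WT and 2 of 4 in Ccdc174 WT, and Telo2 in Ccdc174 WT in 4 of 4. Nrde2, which rose by 2.14 with CHX in Nrde2 WT cells, was no lower in CHX-treated KO libraries (257 and 249) than in CHX-treated WT libraries (242 and 224), so its RNA level does not check the knockout there.

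Ribosome profiling asked whether fewer ribosomes were found on these transcripts in Nrde2-KO cells. Footprints of Tti1 were at 31.4 and 31.1 scaled CPM in WT and 16.5 and 14.4 in KO libraries, 49.3% of the WT mean, and those of Trrap at 157 and 176 and at 80.8 and 75.8, 47.1% of the WT mean. Both genes were apart between the groups and fell (Tti1 −1.01 ± 0.12, adjusted p = 2.21e-06, and Trrap −1.08 ± 0.08, adjusted p = 7.71e-09). Atm footprints fell from 53.4 and 51.7 to 31.5 and 30.6 (−0.75 ± 0.10, adjusted p = 4.48e-06). Prkdc footprints fell from 37.2 and 38.8 to 24.5 and 25.7 (−0.59 ± 0.11, adjusted p = 0.000172; −0.44 and adjusted p = 0.0334 on CPM as deposited). These 4 of the 9 genes passed, all as lower, where 25.2% of all genes passed and 14.2% passed as lower, and Tti1 and Trrap were beyond 1 in size, where 6.42% of all genes were. Tti2 (13.3 and 11 against 12.5 and 10.9), Telo2 (15.2 and 17.8 against 14.1 and 15.3) and Atr (36.5 and 39.1 against 30.3 and 37.5) did not pass, with 70 to 102 reads per library for Tti2. Mtor (−0.16, adjusted p = 0.148) and Smg1 (0.12, adjusted p = 0.272) did not pass either.

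For Atm and Prkdc the footprints were lower in Nrde2-KO cells while the RNA of the same lines was not. The Ribo-seq effect minus the RNA-seq effect was −0.77 ± 0.12 for Atm (adjusted p = 0.00204), −0.67 ± 0.11 for Prkdc (adjusted p = 0.0027) and −0.62 ± 0.13 for Trrap (adjusted p = 0.00968), and 5.19% of all genes passed this test. Tti1 was the other way (0.42 ± 0.14) and did not pass (adjusted p = 0.0654). Expressed as footprints per kilobase of coding sequence over RNA per kilobase of exon, Atm went from 0.435 in WT to 0.255 in KO cells, Prkdc from 0.351 to 0.220, Trrap from 1.70 to 1.1 and Tti1 from 0.482 to 0.645. Mtor stayed at 0.890 and 0.896. None of the 3 differences passed on CPM as deposited (adjusted p 0.019 to 0.0564) or with no filter on low values (adjusted p 0.0303 to 0.0833). That of Trrap, nearest to the threshold, was also lost with 0.1 added before the log2 (adjusted p = 0.0133), with TMM scaling (0.0111) and with the RNA of the second experiment (0.0317). With any 1 of the 4 Ribo-seq libraries left out none passed, and over all 8 such fits the adjusted p ran from 0.0021 to 0.013 for Atm, from 0.00794 to 0.017 for Prkdc and from 0.00643 to 0.0446 for Trrap.

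**Figure D5:**
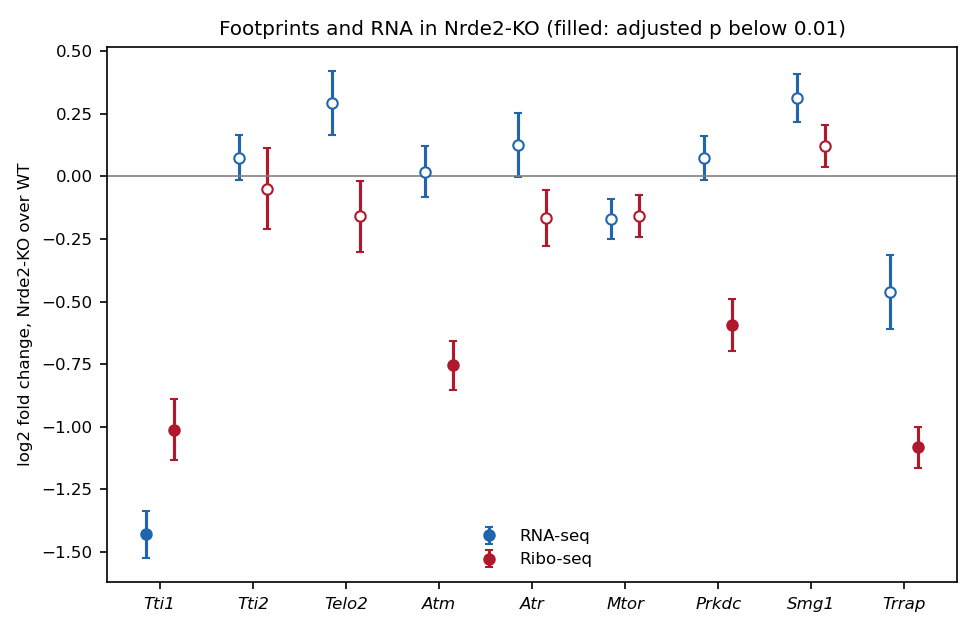
Log2 fold changes in Nrde2-KO against WT cells (vertical axis) for the 9 genes (horizontal axis), with bars of 1 SE and a line of no change. Each gene has a blue point for RNA-seq and a red point for Ribo-seq, filled where the adjusted p was under 0.01 (limma). For Atm, Prkdc and Trrap the Ribo-seq point lies below the RNA-seq point. For Tti1 it lies above, and for Mtor the points lie at nearly the same height.

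The genes whose pattern over the 14 RNA-seq group means was most like that of Tti1 were Mta1 (Pearson r of log2 means 0.982), Iqgap3 (0.977) and Vars (0.975), among 10396 genes. Mta1, a subunit of the NuRD chromatin complex, had a mean of 49.8 scaled CPM in Nrde2 WT and 24.1 in Nrde2-KO libraries. Vars, the valyl-tRNA synthetase, had 230 and 67.1, and Iqgap3 had 84.6 and 34.1. Akip1 (0.979), Cep63 (0.977) and Mettl14 (0.975) were most like Tti2, and Zfp772 (0.960), Adal and Ankrd26 (0.937 each) most like Telo2. Among members r was 0.585 for Tti1 and Trrap, 0.789 for Tti2 and Telo2, −0.0447 for Tti1 and Tti2 and −0.0189 for Tti1 and Telo2. These values describe 14 means that share libraries and treatments.

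Genes that work with the members were counted in 3 lists. These held 17 TTT partner genes (R2TP, prefoldin-like and HSP90 co-chaperones with their partners), 27 subunits that partner the PIKKs and 24 PIKK effectors. In Nrde2-KO cells 1 of the 17 TTT partner genes rose and 1 fell, with a median of −0.15. The riser was Pdrg1, a prefoldin-like subunit, at means of 16.2 in WT and 34.7 in KO cells (1.09, adjusted p = 1.29e-06), and the other was Polr2e (−0.54). Of the 27 complex partners 5 fell, among them Xrcc5, the KU80 partner of PRKDC (−0.59), and Kat2a, the acetyltransferase of the SAGA complex that holds TRRAP (−0.50). Of the 24 effectors 4 fell, with H2afx, a histone that ATM phosphorylates, at −1.23 and Topbp1, an activator of ATR, at −0.81. In the second experiment the lists gave 1 higher and 2 lower, 1 higher and 4 lower, and none higher and 4 lower, with Tfeb, a transcription factor controlled by MTOR, at −1.11.

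After CCDC174 depletion, where 5.59% of all genes passed, 1 of 17 TTT partner genes rose (Pdrg1, 0.69). Among the 27 PIKK partners 1 rose (Brd8, 0.31) and 1 fell (Kat2a, −0.53). Of 24 effectors 2 fell (Tsc2, an inhibitor of MTOR signalling, −0.85, and Topbp1, −0.68). In Nrde2-Δ200 cells, where 7.49% of all genes passed, 1 of 17 TTT partner genes rose and 1 fell. Of the 27 partners 3 fell, and of the 24 effectors 1 fell. The TTT partner gene that fell was Rpap3, a core subunit of R2TP, from a mean of 100.1 to 43.7 (−1.19). Rpap3 was not among the TTT partner genes that passed in the first Nrde2-KO comparison. In Mtrex-KO cells 11 of 17 TTT partner genes fell, with a median of −0.49, while Pdrg1 rose (1.84). Those that fell included Polr2e (−1.22), Pih1d1, the R2TP adaptor that contacts TELO2 (−1.14), and Stip1 (−1.08). Of the 27 partners 6 rose and 11 fell there, with Xrcc6, the KU70 partner of PRKDC, at −1.20 and Prr5, a subunit of mTORC2, at −1.03. Of the 24 effectors 4 rose and 9 fell, with H2afx (−1.34), the checkpoint kinase gene Chek1 (−1.18), Brca1 (−1.16) and Clspn (−1.01). In Ribo-seq of Nrde2-KO cells 4 of the 17 TTT partner genes passed. Of these 2 rose, 1 of them by a log2 fold change beyond 1, and 2 fell. Of the 27 PIKK partners 9 fell, led by Kat2a (−1.1, means of 107.7 in WT and 50.2 in KO). Of the 24 effectors 11 fell, led by Tsc2 (−1.02), and their median was −0.30. No gene of the 3 lists passed in Nrde2-D174R cells. The share of all genes that passed, given above for each comparison, is the background of these counts.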

How the data were processed

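RNA-seq of ribosomal RNA-depleted total RNA and Ribo-seq with Benzonase footprints were deposited as CPM per gene. Alignment by the authors was to mm10 using STAR (2.7.3a in the methods, 2.7.0a also listed in the processing notes) and counted uniquely mapping reads by strand with featureCounts on GENCODE M23; the total that the CPM were divided by is not given in the sources used here. Genes were named here with GENCODE M21 (55154 of 55335 identifiers matched). Whole reads were recovered from the deposited CPM (100% of values lay within 0.1 of whole numbers), which gave the depth. The members had 467 to 17878 reads per RNA-seq library.

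CPM were divided by median-of-ratios factors (0.685 to 1.15 in RNA-seq, the lowest in Mtrex-KO libraries, and 0.944 to 1.14 in Ribo-seq). Genes averaging 0.5 CPM or more were tested on log2(CPM + 0.25) with limma 3.58.1 (R 4.3.3), with trend, and Benjamini-Hochberg adjustment over all genes of a fit; fold changes are on this scale and understate changes of low genes. A gene passed at an adjusted p under 0.01. Libraries without CHX (20), with CHX (8) and of Ribo-seq (4) were fitted apart, and differences between effects as interaction terms. Counting error only is covered by read numbers. The scripts were tested on simulated data with known changes. Alternatives were pseudocounts of 0.1 and 1, no filter or a mean of 1 CPM, CPM as deposited, TMM scaling, a replicate block, edgeR 4.0.16 and DESeq2 1.42.0 on recovered reads, the compared groups alone, the second experiment and leaving out each library.

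The members and gene lists were chosen with earlier results of these data known. All 9 members and the targeted genes are named; from the lists, genes passing with a log2 fold change beyond 1, otherwise at most the 2 with the largest change among those that passed; and the 3 genes most correlated with each TTT subunit among those with a mean of at least 5 CPM. The 5′SS were read from GRCm38 for all protein-coding transcripts of GENCODE M21. CLIP libraries of the series were not used here.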

Additional observations from a re-analysis of the deposited data

Results flagged for a closer look

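In 7 results an effect differed between assays, treatments or knockouts by a test of the difference itself (limma interaction terms, 2 libraries a group). The Nrde2-KO effect was lower in Ribo-seq than in RNA-seq for Atm (−0.77), Prkdc (−0.67) and Trrap (−0.62), each in the direction of fewer footprints per transcript. None of these held with any 1 of the 4 Ribo-seq libraries left out, and that of Trrap was lost in 7 of 8 fits with 1 library left out and in 6 other settings.

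CHX moved the effect on Tti1 towards 0 by 0.83 in Nrde2-KO and by 0.82 in Ccdc174-dTAG cells. The Mtrex-KO effect differed from the Nrde2-KO effect for Telo2 (−0.82) and for Prkdc (0.52). The second of these was lost on CPM as deposited (adjusted p = 0.736) and in 3 of 8 fits with 1 library left out. No group had 4 or more libraries, so single libraries were not tested for standing apart.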

How the results depend on the processing

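Of 642 results of single members under an alternative setting, 542 stayed on their side of the threshold, 100 no longer passed and 0 changed sign, and 21 of 44 member results held under every setting. Each value below is the number of the 9 genes that passed. The changes of Tti1 held in every comparison and setting except its difference between CHX and no CHX. With no filter on low values, 1 passed in the second Nrde2-KO experiment, 0 in the Ribo-seq minus RNA-seq difference and 3 in each CHX comparison in WT cells. With the replicate block, whose numbers the labels give without saying what they pair (correlations of deviations −0.0334 to 0.422), 3 passed in Nrde2-KO, 5 in Ccdc174-dTAG, 4 in Ccdc174-dTAG with CHX, 3 in the Ccdc174-dTAG minus Nrde2-KO difference, 4 in the Mtrex-KO minus Nrde2-KO difference and 3 in Nrde2-Δ200 against Nrde2-KO, and Trrap lost its Ribo-seq minus RNA-seq call (adjusted p = 0.0101). With DESeq2, 5 passed in Ccdc174-dTAG, 4 in Ccdc174-dTAG with CHX, 4 in the Mtrex-KO minus Nrde2-KO difference and 2 in Nrde2-Δ200 against Nrde2-KO. With only the compared groups in the fit, 3 passed in Nrde2-KO, 2 in the second experiment, 2 in Mtrex-KO, 3 in Nrde2-Δ200 and 5 in Nrde2-D174R against Nrde2-KO and 0 in the CHX difference of Ccdc174-dTAG. On CPM as deposited 0 passed in the Ribo-seq minus RNA-seq difference, and with the second Nrde2-KO experiment as reference 5 passed in the Mtrex-KO difference. Leaving out 1 library gave 1 to 3 in the second experiment, 0 to 3 in the Ribo-seq minus RNA-seq difference, 3 to 4 for CHX in each WT line, 0 to 1 in each CHX difference, 1 to 3 in the Mtrex-KO difference and 1 to 3 in Nrde2-D174R against Nrde2-KO. The causes were not tested. With 2 libraries a group and 92 to 242 Ribo-seq reads for Tti1, smaller changes may go undetected.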
